A study of Homo sapiens with 12 samples.

Results

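The 8 genes described here are MYC, its partner MAX, and the genes MXD1, MXD3, MXD4, MXI1, MNT and MGA, whose products compete with MYC for MAX. They were taken by gene name from the deposited table, which held all 8 among its 36866 genes. The cells were THP-1 and U-937, 2 established human acute myeloid leukemia (AML) lines with monocytic features, which the labels describe as having a complex karyotype. Cells of each line received honokiol, a plant biphenol, or 0.1% DMSO as the vehicle control for 24 h, and poly(A) RNA of 3 libraries per line and treatment was sequenced, 12 libraries in all. The labels name honokiol at 20 and 35 μM without saying which line received which dose. Nothing in the labels says whether the libraries of a group came from separate cultures, so that p-values measure the spread between these libraries, which may be technical.

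MYC is a transcription factor of the basic helix-loop-helix leucine zipper class that binds DNA only as a dimer with MAX. The MYC-MAX dimer binds the E-box CACGTG and activates genes of ribosome production, nucleotide synthesis and growth. The MXD proteins (MXI1 is also known as MXD2), MNT and MGA also bind E-boxes as dimers with MAX. Dimers of MAX with an MXD protein or MNT recruit the SIN3-HDAC corepressor. MGA joins MAX within the PRC1.6 Polycomb complex. In leukemic blood cells high MYC keeps cells growing and undifferentiated, and MXD1 is known to rise as myeloid cells mature.

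Expression levels are given as FPKM, fragments scaled to transcript length and to the mapped fragments of the library, as deposited. Differences are log2 fold changes of the deposited estimated counts with 1 standard error (SE). They come from edgeR's quasi-likelihood test, with p-values adjusted by Benjamini-Hochberg over all genes tested. The counts summed to 57406966 to 75065752 per library, and 1 fragment was mostly worth 4 counts. The share of counts from the mitochondrial genome was high in the first DMSO library of each line, at 13.7% for THP-1 and 12.6% for U-937, and lay between 5.61% and 7.55% elsewhere. Of 10 myelomonocytic markers, 10 reached a mean of 1 FPKM in THP-1 and 9 in U-937, where MPO did not. No T cell, erythroid, epithelial or fibroblast marker reached this level. All 6 proliferation markers did in every group. Of 6 markers of monocyte to macrophage maturation 4 did, except in U-937 with DMSO, where 3 did.

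MYC had the widest spread of the 8 members in THP-1 cells. In THP-1 cells with DMSO its 3 libraries stood at 17.79, 8.24 and 1.51 FPKM, and with honokiol at 2.32, 17.38 and 1.30 FPKM. One library of each treatment was thus above 17 FPKM and one below 2 FPKM, and the treatments overlapped. In U-937 cells MYC stood at 3.86, 6.88 and 10.47 FPKM with DMSO and at 3.96, 5.65 and 1.68 FPKM with honokiol. These groups overlapped too, although the highest value was a DMSO library and the lowest a honokiol library. The highest MYC value was 11.8 times the lowest within THP-1 DMSO and 13.4 times within THP-1 honokiol. Only 0.50% and 0.342% of the genes with a mean of at least 1 FPKM in those groups spread as widely. Within U-937 the ratio was 2.71 with DMSO and 3.36 with honokiol. Of the libraries with the high mitochondrial share, DMSO replicate 1 of THP-1 was the highest MYC library of its group and DMSO replicate 1 of U-937 the lowest. In bulk libraries such as these, fewer cells with a transcript and less of it per cell cannot be told apart.

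MXD1, which encodes a MAX partner that opposes MYC, showed a wide spread in the other line. In U-937 cells it stood at 4.04, 4.12 and 0.51 FPKM with DMSO and at 0.48, 4.33 and 4.12 FPKM with honokiol. Each treatment therefore held 2 libraries near 4 FPKM and 1 near 0.5 FPKM, with nothing between. The low libraries were DMSO replicate 3 and honokiol replicate 1. The ratio of highest to lowest was 8.08 and 9.02, as wide as in only 0.873% and 0.645% of genes. In THP-1 cells MXD1 lay at 1.54, 1.38 and 1.55 FPKM with DMSO and at 1.61, 1.94 and 2.39 FPKM with honokiol, a narrow range. SNRNP27, a splicing gene that overlaps MXD1 on the same strand, lay between 7.81 and 10.20 FPKM in the 6 U-937 libraries and did not follow the drop.

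**Figure D1:**
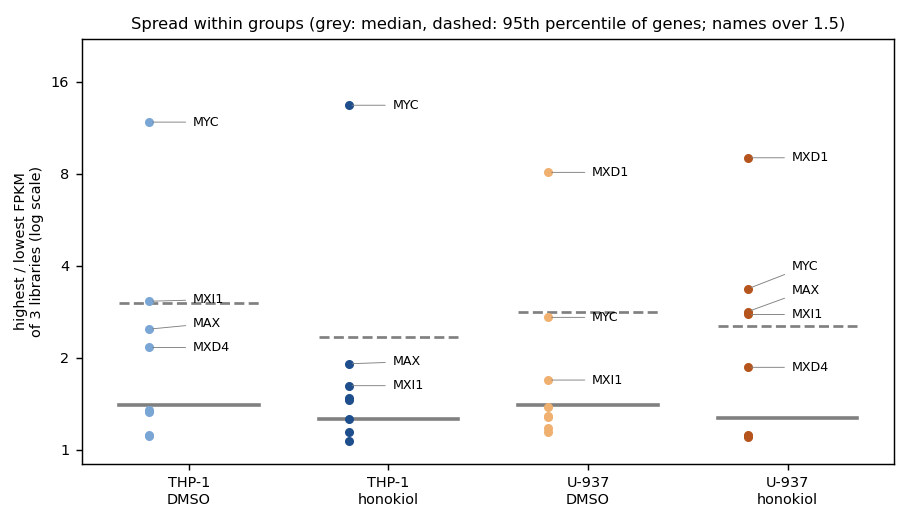
The vertical axis gives, on a log scale, the highest FPKM divided by the lowest among the 3 libraries of a group, for the 4 groups along the horizontal axis. Points are the members, with names above a ratio of 1.5, the solid grey line is the median and the dashed line the 95th percentile of all genes with a mean of at least 1 FPKM (MGA in U-937 lies under that mean). MYC lies far above the dashed line in THP-1 (11.8 and 13.4) and MXD1 in U-937 (8.08 and 9.02).

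MAX, the shared partner, was steadiest in U-937 cells with DMSO, where it stood at 13.80, 15.28 and 13.36 FPKM. With honokiol the 3 U-937 libraries stood at 10.92, 4.63 and 13.09 FPKM, all below the DMSO libraries. In THP-1 cells the values were 12.82, 5.38 and 5.16 FPKM with DMSO and 9.75, 5.10 and 6.0 FPKM with honokiol. In both THP-1 groups replicate 1 was the high one. FNTB, on the other strand across MAX, lay between 3.07 and 8.49 FPKM in all libraries. Whether the authors' counting used strand is not stated, so that reads of overlapping genes may have been shared.

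The antagonists MXD3, MXD4, MXI1 and MNT were each present in all 12 libraries. MNT, the broadly expressed antagonist, had 3.91, 4.49 and 3.37 FPKM in THP-1 with DMSO and 4.87, 4.26 and 4.56 FPKM with honokiol. In U-937 it had 6.06, 4.87 and 4.72 FPKM with DMSO and 4.61, 4.56 and 5.04 FPKM with honokiol. It was among the steadiest members, with a ratio of highest to lowest of at most 1.33 in any group. MXD3, an MXD protein linked to proliferating cells, had 5.38, 5.76 and 5.97 FPKM in THP-1 with DMSO and 5.84, 5.48 and 5.53 FPKM with honokiol. In U-937 it had 5.46, 3.96 and 3.96 FPKM with DMSO and 4.35, 3.95 and 3.98 FPKM with honokiol. The THP-1 libraries of MXD3 were nearly equal, and 1 U-937 DMSO library stood above the other 5 of its line. RAB24 overlaps MXD3 on the same strand and PRELID1 on the other strand. With honokiol RAB24 lay at 7.16 to 8.70 FPKM in THP-1 and at 3.91 to 5.25 FPKM in U-937. PRELID1 lay at 49.55 to 68.73 FPKM in THP-1 and at 34.12 to 44.06 FPKM in U-937 with honokiol. With DMSO the lines overlapped for PRELID1 (44.87 to 57.43 and 46.03 to 50.51 FPKM) but not for RAB24. Whether reads of these genes entered the MXD3 values was not tested.

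MXD4 had 3.38, 6.01 and 7.30 FPKM in THP-1 with DMSO and 6.52, 5.82 and 8.42 FPKM with honokiol. In U-937 it had 4.72, 4.87 and 3.78 FPKM with DMSO and 2.76, 4.58 and 5.14 FPKM with honokiol. The treatments overlapped in both lines. MXI1, a MAX partner that recruits SIN3, had 3.35, 5.50 and 10.24 FPKM in THP-1 with DMSO and 6.51, 4.01 and 6.03 FPKM with honokiol. In U-937 it had 2.93, 1.92 and 1.73 FPKM with DMSO and 1.90, 1.74 and 4.82 FPKM with honokiol. Single high libraries set the upper ends, DMSO replicate 3 in THP-1 and honokiol replicate 3 in U-937.

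MGA separated the lines. It had 6.86, 7.74 and 5.72 FPKM in THP-1 with DMSO and 6.20, 6.0 and 4.94 FPKM with honokiol. In U-937 it had 0.41, 0.45 and 0.38 FPKM with DMSO and 0.57, 0.51 and 0.57 FPKM with honokiol. Every THP-1 library was thus far above every U-937 library. The low U-937 values rested on 490 to 720 estimated counts per library, where 1 fragment was mostly worth 4 counts.

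**Figure D2:**
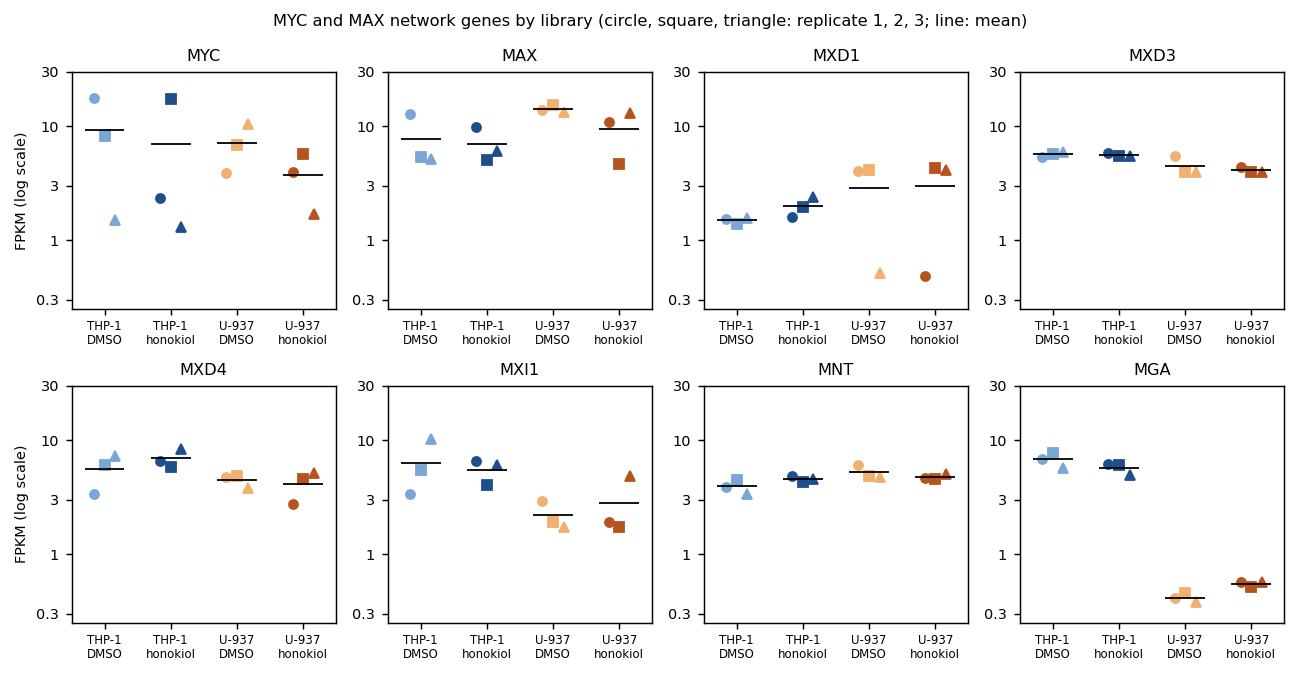
Each panel gives the FPKM of 1 member on a log axis in the 4 groups, with circle, square and triangle for replicates 1, 2 and 3 and a line at the group mean. MYC spans 1.30 to 17.79 FPKM in THP-1, MXD1 has a low library in each U-937 group (0.51 and 0.48), and MGA lies between 4.94 and 7.74 FPKM in THP-1 and between 0.38 and 0.57 FPKM in U-937.

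Ordered by mean FPKM, which is scaled to length, MYC and MAX led in THP-1 cells with DMSO, at 9.18 ± 8.18 and 7.79 ± 4.36 FPKM (SD, n = 3), followed by MGA, MXI1, MXD3, MXD4, MNT and MXD1. Neighbours in this order overlapped except MNT and MXD1. With honokiol the order in THP-1 was MYC, MAX, MXD4, MGA, MXD3, MXI1, MNT and MXD1, again with only the last step free of overlap. In U-937 cells with DMSO, MAX led at 14.1 ± 1.01 FPKM (SD, n = 3) without overlap with MYC at 7.07 ± 3.31 FPKM. MNT, MXD3, MXD4, MXD1 and MXI1 followed with overlap from step to step, and MGA was last at 0.413 ± 0.0351 FPKM, below every MXI1 library. With honokiol the U-937 order was MAX, MNT, MXD4, MXD3, MYC, MXD1, MXI1 and MGA, with overlap at every step but the last.

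The summed level of the 6 antagonists was 29.8 ± 4.95 FPKM in THP-1 with DMSO and 30.3 ± 2.43 FPKM with honokiol (SD, n = 3). In U-937 it was 19.6 ± 4.30 and 19.3 ± 4.51 FPKM. A sum evens out swings of single genes, and in U-937 MXD1 alone had a coefficient of variation of 71.3% with DMSO and 72.7% with honokiol, against 46.8% and 52.9% for MYC. The ratio of MYC to this sum followed MYC and ran from 0.0442 to 0.729 in THP-1 with DMSO and from 0.0408 to 0.632 with honokiol. In U-937 it ran from 0.163 to 0.694 with DMSO and from 0.0710 to 0.287 with honokiol. The treatments overlapped in this ratio in both lines.

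Honokiol was first compared with DMSO within each line. No member was called in either line. In THP-1 cells 0 of 8 members passed an adjusted p under 0.05 with an absolute log2 fold change over 1, where 6 of 14600 genes (0.0411%) did. In U-937 cells 0 of 8 passed, where 13 of 13726 genes (0.0947%) did. No member had an unadjusted p under 0.05 in either line, while 6.84% of genes were higher and 6.22% lower at that level in THP-1 and 8.25% were higher and 8.44% lower in U-937. DESeq2, limma on the FPKM values, the other filters and scalings and each library left out also called no member in either line.

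For MYC the log2 fold change with honokiol was -0.49 (SE 1.07, adjusted p = 0.864 by edgeR) in THP-1 and -0.99 (SE 0.451, unadjusted p = 0.06, adjusted p = 0.323 by edgeR) in U-937. The THP-1 estimate was set by single libraries. Without DMSO replicate 1 it was 0.51 and without honokiol replicate 2 it was -2.43. In U-937 it stayed between -1.38 and -0.63 under every alternative run. For MAX the log2 fold change was -0.25 (SE 0.422) in THP-1 and -0.65 (SE 0.339, edgeR adjusted p = 0.384) in U-937.

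Among the antagonists the honokiol responses were small beside their errors. MXD1 had a log2 fold change of 0.35 (SE 0.2, edgeR adjusted p = 0.483) in THP-1, with all 3 honokiol libraries above the DMSO libraries. In U-937 its value was -0.07 with an SE of 0.878, the widest of the 8 in that line. MGA had -0.30 (SE 0.166) in THP-1 and 0.31 (SE 0.186) in U-937, where all honokiol libraries lay above the DMSO libraries. MGA passed the filter of at least 0.5 FPKM in 3 libraries of U-937 only through the honokiol group, so that its place among the tested genes of that line was itself set by those libraries. MXD3, MXD4, MXI1 and MNT lay between -0.24 and 0.28 in both lines. Libraries of the treatments did not overlap for 1 of 8 members in THP-1 (MXD1, higher) and for 2 of 8 in U-937 (MGA, higher, and MAX, lower). Among all tested genes 20.6% did not overlap in THP-1 and 24.2% in U-937, so that these counts of members were near the background.

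Whether honokiol acted differently in the 2 lines was tested on all 12 libraries together. The dose that each line received is not stated, so that line and dose cannot be told apart here either. No member was called, where 18 of 16283 genes (0.111%) had an adjusted p under 0.05. MGA had an unadjusted p under 0.05, as 9.35% of genes did, with a difference of 0.60 (SE 0.217, U-937 minus THP-1, edgeR adjusted p = 0.408). For MYC the difference was -0.50 with an SE of 1.33, and for MXD1 it was -0.43 with an SE of 1.04. Differences of these sizes were not detectable at the spread of these libraries.

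**Figure D3:**
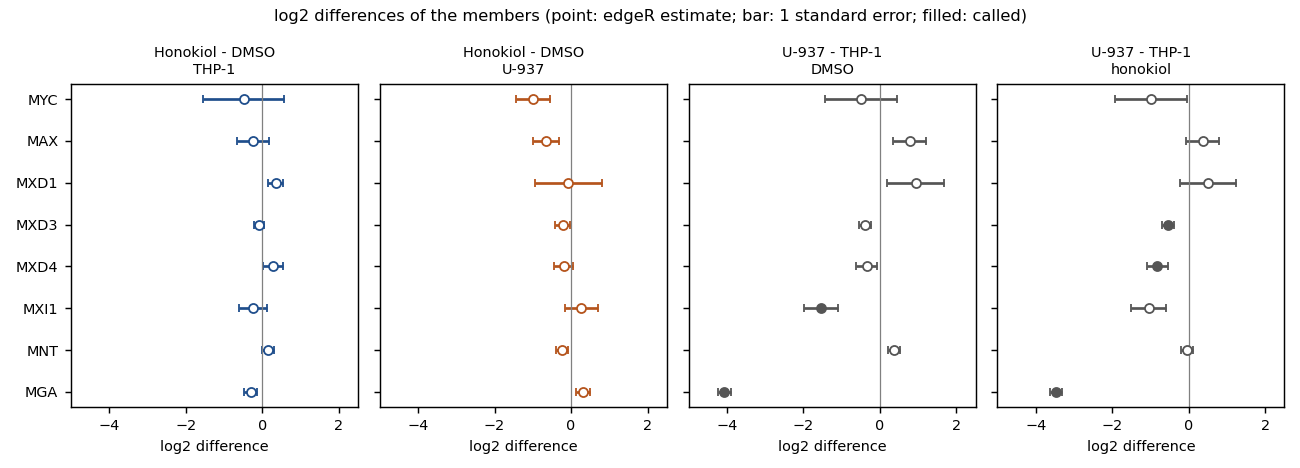
Points are edgeR log2 differences of the 8 members, bars are 1 SE, and filled points were called. The left panels compare honokiol with DMSO in THP-1 and in U-937, where no point is filled, and the right panels compare U-937 with THP-1, where MGA stands at -4.07 with DMSO and -3.47 with honokiol.

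The lines were then compared with each other, separately with DMSO and with honokiol. As the labels do not say which dose each line received, line and dose cannot be told apart in the honokiol comparison. MGA was lower in U-937 by 4.07 on the log2 scale with DMSO, a ratio of THP-1 to U-937 mean FPKM of 16.4 (SE of the log2 value 0.173, edgeR adjusted p = 1.65e-08). With honokiol the ratio of means was 10.4, the log2 difference -3.47 (SE 0.168, edgeR adjusted p = 3.79e-08). MXI1 was lower in U-937 with DMSO by a log2 difference of -1.54 (SE 0.452, edgeR adjusted p = 0.0125), a ratio of means of 2.90. Without DMSO replicate 3 of THP-1, the 10.24 FPKM library, the MXI1 difference was -1.07 and no longer called (edgeR adjusted p = 0.0668). With honokiol MXD3 was lower in U-937 by -0.55 (SE 0.16, edgeR adjusted p = 0.0133) and MXD4 by -0.82 (SE 0.276, edgeR adjusted p = 0.0256). MXD4 was no longer called in 3 of 14 alternative runs. They included those without honokiol replicate 3 of THP-1 (-0.67, edgeR adjusted p = 0.0946) and without honokiol replicate 1 of U-937 (-0.60, edgeR adjusted p = 0.0917). Each of these genes had the same direction in the other treatment, without a call. MXI1 was at -1.05 with honokiol (edgeR adjusted p = 0.0678). With DMSO MXD3 was at -0.39 and MXD4 at -0.34 (edgeR adjusted p = 0.0582 and 0.319).

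In all, 2 of 8 members were called between the lines with DMSO and 3 of 8 with honokiol, all of them antagonists and all lower in U-937. Of all genes 52.9% were called with DMSO and 51.4% with honokiol, so that the shares of members called were not above the background. Libraries did not overlap for 4 members with DMSO, MAX and MNT being higher and MGA and MXI1 lower in U-937, and for 3 with honokiol, namely MGA, MXD3 and MXD4, all lower. For all genes these shares were 56.7% and 64.5%. MAX and MNT did not pass the test with DMSO (log2 differences 0.78 and 0.37, edgeR adjusted p = 0.151 and 0.0715). MYC did not differ beyond its error, with -0.49 (SE 0.942) with DMSO and -0.99 (SE 0.951) with honokiol. With DMSO its sign turned without DMSO replicate 1 of THP-1 (0.51) and in the fits on log2 FPKM. The MGA difference ranked 23 of 16283 genes by p with DMSO and 47 with honokiol, and it was called under every alternative run, with log2 values from -4.21 to -2.98 and from -3.58 to -2.56.

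The low level in U-937 was not shared by all genes around MGA. The gene lies at chr15:41621224-41773081 on the plus strand (GRCh38 coordinates of the table). Within 500 kb on either side, a window chosen after the MGA values were seen, 19 other genes were tested with DMSO. Of these 6 were called lower and 2 called higher in U-937, where 28.5% and 24.4% of all genes were. The median log2 difference in the window was -0.20, against -0.05 over all genes. MAPKBP1, the next gene downstream, differed by -0.09 (edgeR adjusted p = 0.711). Of the receptor tyrosine kinase genes upstream, TYRO3 was higher in U-937 (2.22) and LTK was lower (-5.66). As MGA was the member with the largest difference, the 250 bases before its annotated start are shown, from RefSeq on GRCh38.p14, plus strand, chr15:41620974-41621223.

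MGA upstream: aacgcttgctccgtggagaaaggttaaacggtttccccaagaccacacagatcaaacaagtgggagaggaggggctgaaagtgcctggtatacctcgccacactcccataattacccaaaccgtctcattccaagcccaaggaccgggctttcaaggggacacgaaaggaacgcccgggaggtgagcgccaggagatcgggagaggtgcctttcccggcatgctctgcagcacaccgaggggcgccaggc

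The E-box CACGTG, which is its own reverse complement, was searched in the RefSeq promoter windows of the members other than MYC, from 250 bases before to 50 after each start. It was found in 2 of 12 windows, belonging to 7 genes, and in 7.26% of all 35116 windows. The matches lie 193 bases before the start of MNT and 238 bases before the start of MXD4. Both follow with 12 bases on either side, since the E-box is the sequence that dimers of this network bind, with the E-box in capitals. The MNT site is at chr17:2401236-2401265 and the MXD4 site at chr4:2262330-2262359, both on the minus strand of GRCh38.p14.
MNT: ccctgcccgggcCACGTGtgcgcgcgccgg
MXD4: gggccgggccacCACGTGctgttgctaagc
The upstream MGA sequence printed above holds no such match. These matches describe letters only. Neither MNT nor MXD4 was called with honokiol in either line.

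The genes around the network were followed in 9 lists covering MYC paralogs and the MLX branch, co-activators, regulators of MYC protein turnover, factors at the MYC gene, the SIN3-HDAC corepressor, the PRC1.6 partners of MGA, 2 sets of MYC targets, and genes repressed by MYC. No gene of any list was called with honokiol in either line by the main edgeR test. DESeq2 called 1 gene of the list of MYC paralogs and the MLX branch in each line. Of 11 alternative settings, DESeq2 among them, 9 called no gene of that list in THP-1 and 8 called none in U-937. An unadjusted p under 0.05 by edgeR with an absolute log2 fold change over 1 also took in 1 gene of growth and metabolism in each line. At an unadjusted p under 0.05 the list with the most genes on one side was ribosome biogenesis in U-937. Of its 25 genes, 16 were lower and 0 higher with honokiol, where 8.44% of all genes were lower, and the median log2 fold change was -0.49, against 0.02 over all genes. Libraries of the treatments did not overlap for 13 of the 25, all lower. With each library of the line left out in turn the number lower ran from 11 (without honokiol replicate 2) to 23 (without DMSO replicate 1, the library with the high mitochondrial share). TCOF1, which supports rDNA transcription, stood at 18.96, 21.32 and 20.91 FPKM with DMSO and at 13.13, 13.80 and 12.96 FPKM with honokiol in U-937. Its log2 fold change was -0.71 (SE 0.111, unadjusted p = 0.000217, edgeR adjusted p = 0.0648), short of the threshold. PES1, a ribosome assembly factor, had -0.81 (edgeR adjusted p = 0.0685).

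In THP-1 the same list had 3 of 25 genes lower and 0 higher at the unadjusted level, where 6.22% of all genes were lower, and a median of -0.24 against 0.00 over all genes. The number lower was 0 without DMSO replicate 1, the THP-1 library with the high mitochondrial share, and up to 9 without DMSO replicate 3. Tested directly, the difference between the lines was called for 0 of 25 genes, with 5 lower at the unadjusted level. NPM1, which encodes the abundant nucleolar protein nucleophosmin, had 0.11 (SE 0.123) in THP-1 and -0.40 (SE 0.158) in U-937.

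Single genes of the ribosome list spread less than MYC over the 6 THP-1 libraries. Their highest FPKM was 1.14 to 2.58 times the lowest (median 1.54), and that of MYC was 13.7 times the lowest. In U-937 the ratios were 1.35 to 2.65 for the list and 6.23 for MYC. The mean log2 CPM of the list over 25 genes lay between 5.89 and 6.45 in the 6 THP-1 libraries, while MYC ran from 1.30 to 17.79 FPKM. In THP-1 with DMSO it stood at 6.45, 6.37 and 6.06, in the order of MYC. With honokiol it stood at 6.22, 6.13 and 5.89, so that the library with 17.38 FPKM of MYC lay below the one with 2.32 FPKM. In U-937 it stood at 7.31, 7.68 and 7.45 with DMSO and at 7.04, 6.92 and 6.99 with honokiol, without overlap. MYC overlapped between these same groups. With DMSO 21 of the 25 genes were called higher in U-937 than in THP-1 and 0 lower, where 24.4% of all genes were called higher and 28.5% lower, with a median log2 difference of 1.30, against -0.05 over all genes. MYC itself was not called in that comparison.

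**Figure D4:**
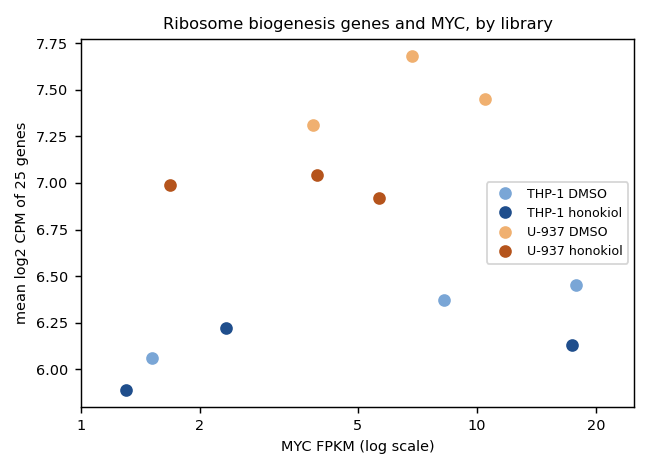
Each point is a library, with MYC FPKM on a log axis along the horizontal and the mean log2 CPM of the 25 ribosome biogenesis genes on the vertical axis, coloured by group. U-937 DMSO libraries lie at 7.31 to 7.68, U-937 honokiol libraries at 6.92 to 7.04 and THP-1 libraries at 5.89 to 6.45, across a MYC range of 1.30 to 17.79 FPKM.

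The second set of MYC targets, 26 genes of growth and metabolism, had genes on both sides. At the unadjusted level 4 were higher and 5 lower in THP-1 (6.84% and 6.22% of all genes), and 4 higher and 9 lower in U-937 (8.25% and 8.44%). With each library of the line left out in turn, 2 to 3 were higher and 0 to 3 lower in THP-1. In U-937, 0 to 4 were then higher and 5 to 12 lower. SHMT2, the mitochondrial enzyme that feeds one-carbon metabolism from serine, stood at 20.41, 24.49 and 26.46 FPKM with DMSO and 37.18, 36.73 and 50.10 FPKM with honokiol in THP-1 (log2 fold change 0.74, SE 0.156, edgeR adjusted p = 0.162). HK2, which encodes hexokinase 2 of glycolysis, had 27.52, 33.97 and 32.84 FPKM with DMSO and 21.53, 20.74 and 20.22 FPKM with honokiol in U-937 (-0.68, SE 0.118, edgeR adjusted p = 0.0711). In both cases the treatments did not overlap, but neither gene passed the test. Of the genes repressed by MYC, 7 were tested in each line, with 0 higher and 1 lower at the unadjusted level. Their median log2 fold change was 0.34 in THP-1 (0.00 over all genes) and -0.13 in U-937 (0.02 over all genes). The lower one in THP-1 was CDKN1A, the cell-cycle inhibitor p21, at -0.46 (SE 0.136, edgeR adjusted p = 0.264), against the median of its list. In U-937 CDKN1A had 0.16 (SE 0.424).

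The other lists are also given at the unadjusted level, at which 6.22% of all genes were lower and 6.84% higher in THP-1, and 8.44% lower and 8.25% higher in U-937. Of the MYC co-activators, 6 of 13 were lower and 0 higher in U-937, and 1 was lower in THP-1. With each library of the line left out in turn, the number lower ran from 3 to 7 in U-937 and from 0 to 5 in THP-1. RUVBL2, an ATPase of chromatin remodelling complexes, had 56.38, 62.17 and 77.77 FPKM with DMSO and 52.77, 46.32 and 41.95 FPKM with honokiol in U-937 (-0.56, SE 0.148, edgeR adjusted p = 0.148). Of the factors at the MYC gene and its mRNA, 4 of 7 tested were lower in U-937 and 0 of 8 in THP-1. With a library left out, 2 to 3 of these factors were lower in U-937 and 0 to 2 in THP-1. ELAVL1, an RNA-binding protein, had -0.44 (SE 0.114, edgeR adjusted p = 0.147) in U-937. Of 13 regulators of MYC turnover 1 was lower in THP-1 and 2 in U-937, near the share of all genes. Of the 18 SIN3-HDAC genes 2 were lower in THP-1, with SIN3A at -0.54 (SE 0.184, edgeR adjusted p = 0.301), and 1 was higher and 2 lower in U-937. Of the 11 PRC1.6 partners of MGA 1 was higher in THP-1 and 0 were higher or lower in U-937. Between the lines with DMSO 7 of these 11 were called higher and 2 lower in U-937, where 24.4% and 28.5% of all genes were.

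Among the MYC paralogs, MYCL had 3.15, 5.63 and 5.67 FPKM with DMSO and 11.67, 8.38 and 13.54 FPKM with honokiol in THP-1. All honokiol libraries stood above all DMSO libraries. The log2 fold change was 1.18 (SE 0.246, unadjusted p = 0.00141), but it was not called (edgeR adjusted p = 0.162). In U-937 MYCL was low, between 0.46 and 1.03 FPKM, with a log2 fold change of -0.44 (SE 0.335, edgeR adjusted p = 0.55). The difference of the responses was -1.62 (SE 0.419, edgeR adjusted p = 0.274) and was not called. TXNIP, a target of the MLX branch, stood lower with honokiol in THP-1 (-0.55 on the log2 scale) and higher in U-937 (1.28), neither of them called. It was the 1 gene of the lists called in the difference between the lines (1.82, edgeR adjusted p = 0.0274). That call did not hold widely. With the counts divided by 4, with limma on the FPKM values, with a replicate block, and without both DMSO replicate 1 libraries, no gene of this list was called, and with single libraries left out 8 of 12 fits called none.

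**Figure D5:**
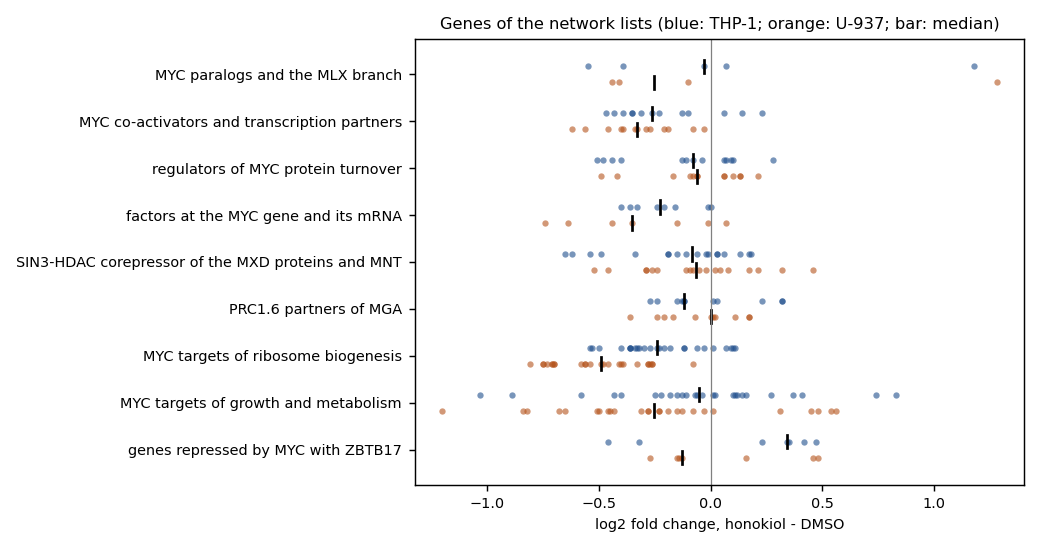
Points are edgeR log2 fold changes of honokiol against DMSO for the tested genes of the 9 lists, blue for THP-1 and orange for U-937, with a bar at each median. The ribosome biogenesis genes lie lower in U-937 (median -0.49) than in THP-1 (median -0.24), and MYCL stands apart at 1.18 in THP-1.

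The genes whose log2 CPM was most like each member over the 12 libraries were found by Pearson's r among genes with a mean of at least 5 FPKM. The 12 libraries share 2 lines, so that these values mix line and library differences and are a description only. For MYC the highest were NOM1 (r = 0.74, Spearman's rho 0.71), RALB (0.73), MRPS30 (0.72), SAR1A (0.72) and RPS6KB1 (0.71), lower than for any other member. For MXD1 they were UFD1 (0.90) and NPLOC4 (0.89). NPLOC4 lay at 18.42 and 15.87 FPKM in the 2 U-937 libraries with low MXD1 and between 21.71 and 23.59 FPKM in the other 4. As NPLOC4 was picked for its likeness to MXD1 over these same libraries, this is no separate observation. For MGA they were IRAK3 and MARVELD1 (both 1.0), which also separated the lines, with IRAK3 at 42.20 to 46.61 FPKM in THP-1 and 5.61 to 7.99 FPKM in U-937. For MAX they were RBBP6 (0.87) and TAOK3 (0.86), and for MXI1 RGS10 (0.92) and LMAN2 (0.90). For MXD3 they were NOL4L (0.96) and TLE5 (0.95), for MXD4 PHF1 (0.92) and ZNF581 (0.89), and for MNT RAI1 (0.85) and TLN1 (0.83).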

How the data were processed

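THP-1 and U-937 cells were profiled by mRNA sequencing in 12 libraries, 3 per group. The deposited table gives FPKM values and estimated counts per gene. The authors scaled the FPKM values to transcript length and library size and did not normalize the estimated counts. The submitters' processing notes name Bowtie 0.12.2, HISAT2 2.0, StringTie 1.3.0 and the build mm8 without roles. The coordinates match GRCh38, since 31423 of 36866 genes share a start or end with GENCODE 29.

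R 4.3.3 was used with edgeR 4.0.16 (quasi-likelihood test, TMM), and limma 3.58.1 and DESeq2 1.42.0 as alternatives. Tested were the genes that reached 0.5 FPKM in 3 or more libraries of the fit. Honokiol was compared with DMSO within a line (adjusted p under 0.05 and absolute log2 fold change over 1), and the lines and the difference of responses in one fit of the 12 libraries (adjusted p under 0.05). FPKM is used for levels, since it is scaled to length. The test was also run on counts simulated with the spread estimated from these data. Such counts cannot show whether that spread describes these members. The members and lists were chosen with earlier results of these data known. By rule all members and the genes most like them (5 for MYC, 2 for each other member) are named. From the lists the rule took genes called or of lowest p in each direction. Only some of these list genes are named, and none of the regulators of turnover or the PRC1.6 partners. PES1, the neighbours of MGA and the overlapping genes were named outside this rule, after their values were seen. Alternatives covered the test, filter, scaling, replicate block, calling rule, pseudocount and each library left out. Intervals and p-values rest on 3 libraries per group, and raw reads were not used here. The result of 1 marker list is not reported here.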

Additional observations from a re-analysis of the deposited data

How the results depend on the processing

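No alternative called a member with honokiol in either line or in the difference between the lines. For U-937 against THP-1 with DMSO, 2 members were called and 4 were with limma on log2(FPKM + 0.5), with limma on log2(FPKM + 0.1) and, in a setting chosen after seeing the data, without both DMSO replicate 1 libraries. With each library left out it ran from 1 (without DMSO replicate 3 of THP-1) to 3. With honokiol it was 3, from 2 to 4 with each library left out, and 1 with the fold limit added. The cause was not tested.

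Directions turned only for values that were not called. With limma on log2(FPKM + 0.5) and (FPKM + 0.1) these were MXD1 with honokiol in U-937 (0.02 and 0.01), MYC between the lines with DMSO (0.05 and 0.09) and MNT between the lines with honokiol (0.05 and 0.05). Without both DMSO replicate 1 libraries, MYC between the lines was 0.79 and the MXD3 difference of responses 0.05. With single libraries left out, the log2 fold change with honokiol in THP-1 ran from -2.43 to 0.51 for MYC, from -0.58 to 0.39 for MAX and from -0.52 to 0.25 for MXI1. In U-937 it ran from -0.58 to 0.44 for MXD1, from -0.39 to 0.03 for MXD4 and from -0.38 to 0.57 for MXI1. The difference of responses ran from -1.52 to 1.44 for MYC, from -0.93 to 0.07 for MXD1, from -0.27 to 0.06 for MXD3 and from -0.16 to 0.80 for MXI1. Between the lines MYC ran from -1.01 to 0.51 with DMSO and from -1.49 to 0.95 with honokiol, and MNT from -0.10 to 0.00 with honokiol.

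The replicate numbers showed no clear pairing, with deviations of same-numbered libraries from their group means correlated at -0.18 to 0.13 in THP-1 and at -0.16 to -0.09 in U-937. With 3 libraries per group these values cannot tell whether same-numbered libraries were handled together. With a replicate block 0 members were called with honokiol in either line, 3 between the lines with DMSO and 4 with honokiol, and MYC between the lines with DMSO was 0.08. Over all genes the calls ran from 0 to 408 in THP-1 (6 as reported), from 0 to 347 in U-937 (13) and from 0 to 244 for the difference (18). The 408 and 347 came from a looser calling rule, an unadjusted p under 0.05 with an absolute log2 fold change over 1. The 244 came from DESeq2. MGA in U-937 could not be fitted without a honokiol library, as it then failed the filter.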
